A study of Mus musculus with 6 samples.

Results

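The genes described here make up the MHC class II presentation pathway as 7 listed members, the class II chains H2-Aa, H2-Ab1 and H2-Eb1, the invariant chain Cd74, the peptide-editing chains H2-DMa and H2-DMb1, and the transactivator Ciita. They were chosen by name, and all 7 were found among the 25419 genes of the expression table. Cochlear tissue of C57BL/6 mice, an inbred strain that loses hearing early in life, was compared between a young group of 1 month and an old group of 12 months, with 3 samples per age. Each sample was tissue mixed from 3 mice, and the labels name dissected cochlear basilar membranes as the source. No treatment or altered allele was given for either group, so that age was the only labelled difference. Expression was given as FPKM (fragments scaled to transcript length and sequencing depth), here summed over the transcripts of a gene.

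MHC class II molecules are pairs of an alpha and a beta chain that carry peptides from the endocytic pathway to the cell surface, where CD4+ T cells read them. The invariant chain, Cd74, guides the new pair out of the endoplasmic reticulum and blocks its groove, cathepsins such as Ctss trim it down to a short stub, and the DM molecule, made from H2-DMa and H2-DMb1, exchanges the stub for a peptide. Ciita does not bind DNA itself but joins the RFX, NF-Y and CREB proteins on the promoters of these genes and switches them on, either in professional antigen-presenting cells or in other cells exposed to interferon-gamma. C57BL/6 mice carry a defect in the gene of the E alpha chain, so that H2-Eb1 RNA is made without a complete I-E molecule at the surface. In the cochlea, resident macrophages are the cells best known for class II expression.

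Apart from Cd74 and Ciita, the members sit together in the class II region of chromosome 17 (GRCm38). In order, the listed transcripts are H2-DMa (chr17:34122832-34139101, plus strand), H2-DMb1 (chr17:34153072-34160230, plus strand), H2-Ab1 (chr17:34263209-34269419, plus strand), H2-Aa (chr17:34282744-34287823, minus strand) and H2-Eb1 (chr17:34306017-34316199, plus strand). Ciita lies at chr16:10488279-10528418 on the plus strand.

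The proteins that Ciita joins recognise an X box and a Y box just before the transcript start, and 2 promoters are shown to let these elements be seen beside the expression values. The sequences are from RefSeq (GRCm38.p6), 150 bases directly before the RefSeq start, at chr17:34287824-34287973 on the minus strand for H2-Aa and chr17:34305717-34305866 on the plus strand for H2-Eb1. Capitals mark the Y box (CCAAT, or ATTGG on the other strand), the letters TGACG or CGTCA that belong to the CREB-binding X2 box, and the letters GATGATGCT. The latter are the longest run shared by the windows of H2-Eb1, H2-DMb1 and the H2-DMb1 paralog H2-DMb2, were chosen after these promoters had been seen, and lie where an X box is placed, upstream of the Y box. In H2-Aa, TGACG and CGTCA overlap.
H2-Aa: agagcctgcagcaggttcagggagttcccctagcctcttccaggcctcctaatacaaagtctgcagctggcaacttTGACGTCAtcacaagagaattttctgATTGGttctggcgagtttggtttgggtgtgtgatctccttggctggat
H2-Eb1: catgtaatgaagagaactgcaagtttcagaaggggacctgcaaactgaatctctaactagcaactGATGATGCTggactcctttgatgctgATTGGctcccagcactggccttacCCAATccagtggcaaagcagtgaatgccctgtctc
The listed H2-Eb1 transcript starts downstream of the RefSeq start, at 34306017 against 34305867.

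RefSeq windows from 250 bases before to 50 bases after a start were found for 4 of the 7 members (H2-Aa, H2-Eb1, H2-DMa and H2-DMb1), while H2-Ab1, Cd74 and Ciita had no entry. In the H2-DMb1 and H2-DMb2 windows 18 bases stood between GATGATGCT and ATTGG, and in H2-Eb1 17 bases. Of the H2-DMa windows, the one at the start of the listed transcript held none of the letters searched, and another held a Y box alone. The windows of H2-Oa, H2-Ob and H2-Eb2, class II genes outside the members, also held a Y box alone. Searched on both strands, the Y box was in 37.4% of the 32851 windows of the mouse genome, TGACG in 20.8% and both in 7.73%. The interferon-gamma-activated site (TTCNNNGAA) was in 8.3% of all windows and in none of these 4 members' windows. The run GATGATGCT was in 90 windows (0.274%), and in 36 of them (0.11% of all) together with a Y box, the 3 class II genes that define it included. These matches describe letters and not binding.

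**Figure D1:**
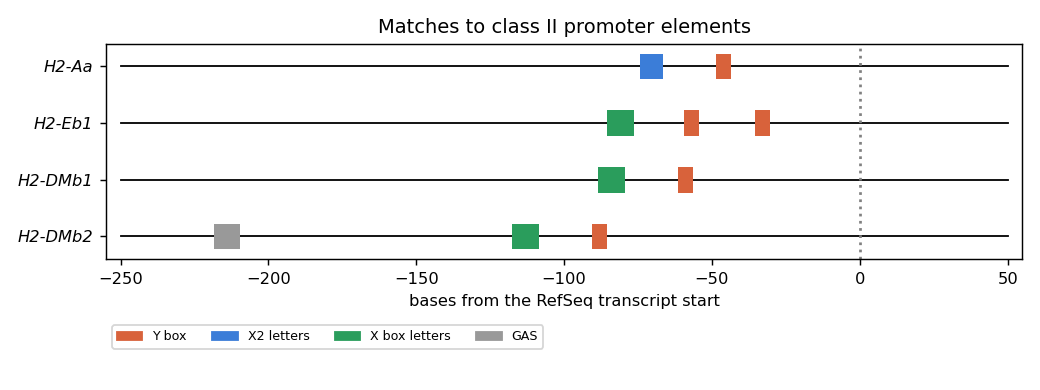
Positions of the searched elements (coloured boxes, bases from the RefSeq start on the x axis, start dotted) in the promoter windows of 3 members and of the paralog H2-DMb2. The X box or X2 letters lie upstream of a Y box in each of the 4 windows, with 17 to 18 bases between the X box letters (GATGATGCT) and the nearest Y box in 3 of them. Only class II windows that hold both elements are drawn, and the X box letters were taken from these 3, so their presence is no finding. The windows of H2-DMa, H2-Oa, H2-Ob and H2-Eb2 hold no X box or X2 letters and are not drawn.

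The depth was not given in the table, and the step size of low FPKM values put it at 12480000 to 15780000 fragments per sample. Correlations of log2 values over genes, which are not independent replicates, were 0.953 to 0.958 among young samples, 0.951 to 0.963 among old samples and 0.928 to 0.948 between ages. Markers of the labelled tissue were present in all samples, with a summed level of 7 hair cell genes from 66.8 to 205 FPKM and of 7 supporting cell genes from 1030 to 1265 FPKM. Genes of blood and bone were present as well. Young replicate 1 stood apart in marrow genes, with a summed neutrophil list of 418 FPKM against 10.9 and 26.0 FPKM in the other young samples and a B cell list of 4.26 FPKM against 0.740 and 0.857. Marrow genes were not confined to that sample, since the neutrophil list was at 71.8, 41.2 and 13.6 FPKM in old replicates 1, 2 and 3. Old replicate 2 stood apart in the monocyte list, with 44.6 FPKM against 5.17 and 2.64 FPKM in the other old samples.

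In old mice the class II chains, the invariant chain and both DM chains were higher, while the low levels of Ciita overlapped between ages. With limma and p adjusted over the 19465 genes tested, 6 of the 7 members were higher in old mice and 0 were lower, against 5.65% of all genes called higher and 3.81% called lower (9.45% in either direction). Every old sample lay above every young sample for the same 6 members, which held for 17.6% of all genes tested. Differences are old minus young on the scale of log2(FPKM + 0.1), on which the median of all genes tested was 0.01. All 7 members passed the filter of a mean FPKM of at least 0.1.

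H2-Aa, the alpha chain of the I-A molecule, was at 6.88, 1.88 and 4.19 FPKM in young replicates 1, 2 and 3 while the old replicates, in the same order, were at 32.0, 34.3 and 25.2 FPKM. The highest young sample, young replicate 1, stayed well below the lowest old sample, old replicate 3. The means were 4.32 ± 2.50 and 30.5 ± 4.72 FPKM (SD, n = 3 each), a log2 difference of 2.96 (SE 0.41, 95% interval 2.00 to 3.92, limma adjusted p = 0.0132). The exact two-sided permutation test gave p = 0.1 for H2-Aa as for the other 5 members that rose, the smallest value that 3 samples against 3 can give.

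H2-Ab1, the beta chain of I-A and the partner of H2-Aa, was at 4.82, 2.35 and 2.09 FPKM in young and at 24.9, 28.1 and 19.9 FPKM in old samples. The groups did not overlap, and young replicate 1 was again the highest of the young. Its means of 3.08 ± 1.51 and 24.3 ± 4.16 FPKM (SD, n = 3 each) differed by 3.02 on the log2 scale (SE 0.30, 95% interval 2.31 to 3.73, limma adjusted p = 0.00847), the largest difference among the members.

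H2-Eb1, the beta chain of I-E, was at 5.30, 2.18 and 1.97 FPKM in young and at 22.8, 22.4 and 16.98 FPKM in old samples. The order of the samples was close to that of H2-Ab1, with old replicate 3 the lowest of the old and no overlap between ages. The means were 3.15 ± 1.87 and 20.7 ± 3.25 FPKM (SD, n = 3 each), a log2 difference of 2.81 (SE 0.35, 95% interval 1.99 to 3.63, limma adjusted p = 0.0118).

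Cd74, the invariant chain, was at 12.5, 5.22 and 9.49 FPKM in young and at 42.1, 46.0 and 31.1 FPKM in old samples. Old replicate 3 was the lowest of the old samples here too, and lay above young replicate 1. Its means were 9.05 ± 3.64 and 39.7 ± 7.68 FPKM (SD, n = 3 each), a log2 difference of 2.19 (SE 0.30, 95% interval 1.48 to 2.90, limma adjusted p = 0.0134).

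H2-DMa, the alpha chain of the peptide editor, was at 2.14, 3.19 and 2.03 FPKM in young and at 7.87, 8.06 and 7.08 FPKM in old samples. Unlike for the class II chains, young replicate 2 was the highest of the young, and the old samples lay close together. The means of 2.45 ± 0.642 and 7.67 ± 0.519 FPKM (SD, n = 3 each) differed by 1.63 on the log2 scale (SE 0.19, 95% interval 1.18 to 2.09, limma adjusted p = 0.0111).

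H2-DMb1, the beta chain of the same editor, was at 14.9, 11.5 and 14.7 FPKM in young and at 25.5, 24.9 and 23.9 FPKM in old samples. It had the highest level of the members in young mice and the smallest rise among the 6, with groups that did not overlap. The means were 13.7 ± 1.90 and 24.8 ± 0.787 FPKM (SD, n = 3 each), a log2 difference of 0.86 (SE 0.11, 95% interval 0.59 to 1.13, limma adjusted p = 0.0129). H2-DMb1 has a near-identical neighbour, H2-DMb2, which was at 0.213, 0 and 0.0758 FPKM in young and at 0.151, 0.479 and 0.0700 FPKM in old samples, so that the split of reads between them is uncertain.

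Ciita, the transactivator, was at 0.212, 0.305 and 0.371 FPKM in young and at 0.240, 0.474 and 0.358 FPKM in old samples. The groups overlapped, with the lowest sample among the young and the highest among the old. The means were 0.296 ± 0.0797 and 0.357 ± 0.117 FPKM (SD, n = 3 each), a log2 difference of 0.20 (SE 0.41, 95% interval -0.77 to 1.16, limma adjusted p = 0.793, exact permutation p = 0.5). These levels correspond to an estimated 16.1 to 26.4 fragments per young sample and 17.3 to 42.7 per old sample, against 24.0 to 59.0 and 247 to 409 for H2-Ab1. A rise of Ciita as large as that of H2-DMa, H2-Aa, H2-Ab1, H2-Eb1 or Cd74 lay outside the interval, while one as large as that of H2-DMb1 lay inside it. The interval takes the Ciita values as listed, which may hold reads of the overlapping gene Dexi.

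**Figure D2:**
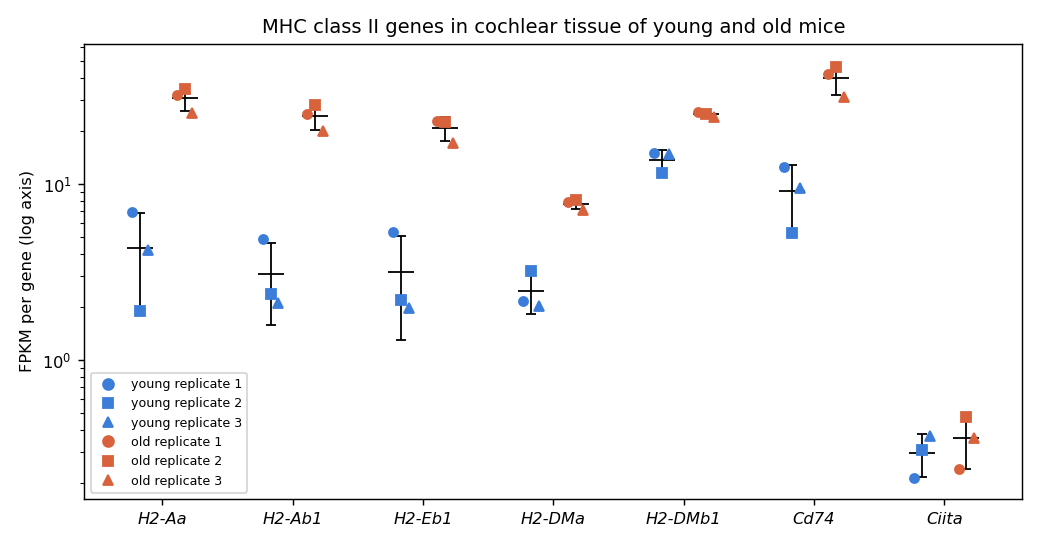
FPKM of each member (log y axis) in the 3 young (blue) and 3 old (orange) samples, with the group mean and SD as black bars. The old samples of 6 members lie above all young samples, from a mean of 24.8 FPKM for H2-DMb1 against 13.7 to a mean of 24.3 for H2-Ab1 against 3.08, and the groups of Ciita overlap between 0.240 and 0.371.

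**Figure D3:**
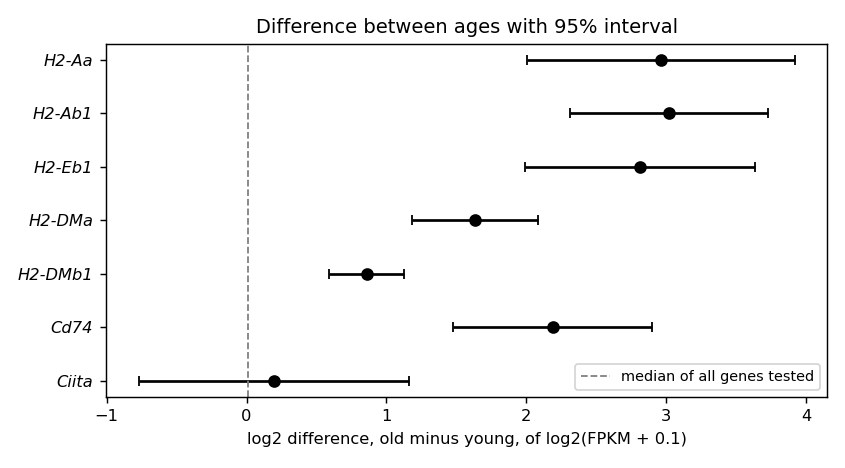
Log2 difference, old minus young, of log2(FPKM + 0.1) for each member (points) with its 95% interval from limma (bars), and the median of all genes tested (dashed). The intervals of H2-Aa, H2-Ab1, H2-Eb1, H2-DMa, H2-DMb1 and Cd74 lie above 0, and that of Ciita runs from -0.77 to 1.16.

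The calls of 5 of the 6 members that rose were lost without old replicate 2, though the size of the rise changed little. Without this sample, 1 of 7 members, H2-Ab1, was called (limma adjusted p = 0.0406), and the share of all genes called higher fell to 0.237%. The log2 differences were then 2.87 for H2-Aa, 2.75 for H2-Eb1, 1.60 for H2-DMa, 0.85 for H2-DMb1 and 2.07 for Cd74, with limma adjusted p from 0.0545 to 0.0589. Leaving out old replicate 1 instead gave similar standard errors (0.50 for H2-Aa, against 0.49 without old replicate 2). In that fit 6 of 7 members were called (H2-Aa at limma adjusted p = 0.0488). Over all genes, 290 were then called higher, against 46 without old replicate 2. Without young replicate 1, the sample with the highest neutrophil list, 6 of 7 members were called higher, against 2.9% of all genes.

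The 6 genes that rose moved up in the order of gene levels. In young mice 44.2% of the genes tested had a lower mean FPKM than H2-Aa, and in old mice 84.2%. For Cd74 these shares were 58.2% and 87.9%, for H2-Ab1 39.1% and 80%, for H2-Eb1 39.3% and 76.9%, for H2-DMa 35.9% and 55.2%, and for H2-DMb1 67.3% and 80.4%. Ciita stayed near the bottom, at 9.78% and 9.96%. Among the 19465 differences between ages, H2-Ab1 ranked 50, H2-Aa 57, H2-Eb1 75, Cd74 195, H2-DMa 529, H2-DMb1 1674 and Ciita 6130.

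By mean FPKM, which takes transcript length into account, the order in young mice was H2-DMb1, Cd74, H2-Aa, H2-Eb1, H2-Ab1, H2-DMa and Ciita. Sample ranges of neighbours in this order overlapped except for H2-DMa and Ciita, although H2-DMb1 was above Cd74 in 3 of 3 samples. In old mice the order was Cd74, H2-Aa, H2-DMb1, H2-Ab1, H2-Eb1, H2-DMa and Ciita. The ranges of neighbours overlapped down to H2-Eb1, and H2-Eb1, H2-DMa and Ciita were separate from each other. In 3 of 3 old samples Cd74 exceeded H2-Aa, and H2-Ab1 exceeded H2-Eb1.

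The ratio between the DM chains, and those of Cd74 and H2-Eb1 to H2-Ab1, separated the ages, while that of the I-A chains did not. H2-DMb1 was 6.97, 3.61 and 7.24 times the FPKM of H2-DMa in young samples and 3.24, 3.09 and 3.38 times in old samples, so that every old ratio was below every young one. Likewise, Cd74 was 2.58, 2.22 and 4.54 times H2-Ab1 in young and 1.69, 1.63 and 1.57 times in old samples, again without overlap. Cd74 over H2-Aa did not overlap either. H2-Eb1 was 1.10, 0.927 and 0.944 times H2-Ab1 in young and 0.916, 0.796 and 0.855 times in old samples, a narrow separation. H2-Aa over H2-Ab1, the ratio of the partner chains of I-A, was 1.43, 0.802 and 2.01 in young and 1.29, 1.22 and 1.27 in old samples. Here the old ratios lay within the range of the young ones and were spread over a narrower range. These ratios are given as a description.

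Ciita, the shared activator, could be set against its targets within each sample. H2-Aa was 32.5, 6.18 and 11.3 times the FPKM of Ciita in young and 134, 72.5 and 70.6 times in old samples. For Cd74 these ratios were 58.8, 17.1 and 25.6 in young and 176, 97.0 and 87.1 in old samples. Old replicate 1, in which Ciita was the lowest of the old samples, had the highest ratios, and young replicate 1 had the highest of the young.

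On the log2(FPKM + 0.1) scale, the difference between a target and Ciita grew from young to old by 2.77 for H2-Aa, 2.83 for H2-Ab1, 2.61 for H2-Eb1, 1.99 for Cd74 and 1.44 for H2-DMa. All old samples exceeded all young samples for these 5 genes, and the exact two-sided permutation test gave p = 0.1 (0.12 after Benjamini-Hochberg adjustment over the 6 targets), the smallest that the design allows, so that no target could pass 0.05. For H2-DMb1 the difference grew by 0.66, the groups overlapped and the exact permutation p was 0.2 (0.20 adjusted).

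**Figure D4:**
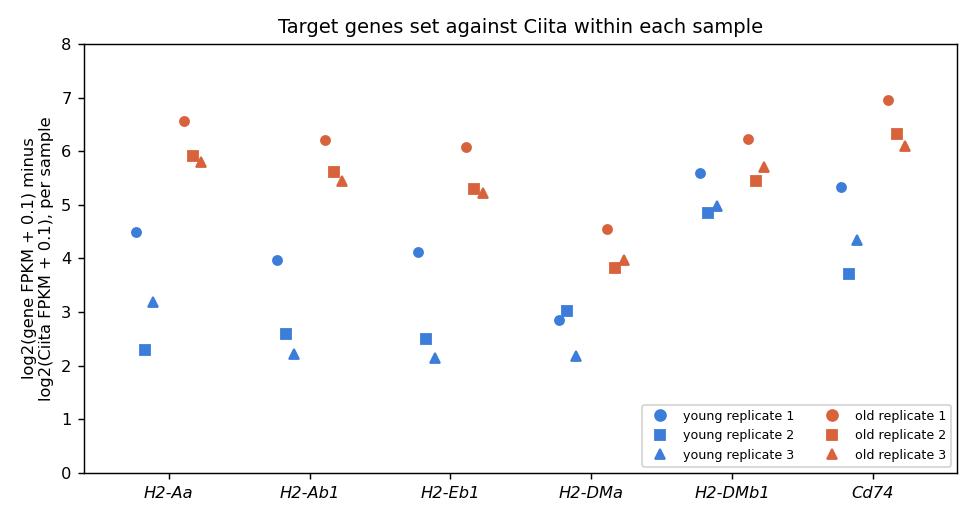
Log2(FPKM + 0.1) of each target minus that of Ciita in the same sample (y axis), for young (blue) and old (orange) samples. The old samples lie above the young ones for all targets but H2-DMb1, whose young replicate 1 (5.59) is above old replicate 2 (5.44).

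The transcripts behind these values were few. H2-Ab1, H2-Eb1, H2-DMa, H2-DMb1 and Ciita had 1 listed transcript each, and at least 99.97% of the H2-Aa level came from H2-Aa-201. Cd74 had 2 transcripts with a measurable level, which differ by an exon: Cd74-201 (1224 nt, 8 exons) and the longer Cd74-202 (1410 nt, 9 exons). Cd74-202 made up 19.9, 34.3 and 27.1% of Cd74 in young and 17.6, 25.2 and 31.7% in old samples, with groups that overlapped. Over the 38764 transcripts tested, of which limma called 0.549% higher, Cd74-202 rose by 2.02 on the log2 scale (adjusted p = 0.0354) while Cd74-201, with a difference of 2.23, did not pass (adjusted p = 0.0652).

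For Ciita, which is read from several alternative promoters, the table lists 1 of the 8 transcripts in GENCODE M21. This is Ciita-201 (6007 nt, 19 exons), whose first exon lies at chr16:10488279-10488424. Of the other annotated transcripts, 3 start upstream, from position 10480059, and 3 start downstream, from position 10489746. Use of the separate promoters was therefore not measured here. Ciita-201 also shares 111 exonic bases with Dexi on the opposite strand, which was at 16.4, 20.6 and 19.1 FPKM in young and 11.5, 13.0 and 14.7 FPKM in old samples. Ciita rests on an estimated 16.1 to 42.7 fragments per sample, few enough for Dexi reads from these bases to weigh heavily if strand was ignored. This limit applies to the Ciita levels, their interval between ages and the target ratios alike. The libraries were directional, but the strand setting of the counting is not given in the sources used here, and the part of Dexi reads in the Ciita values was not tested.

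Of the other class II chains, H2-DMb2 and H2-Ob entered the test and neither passed. H2-Ob, the beta chain of the DM inhibitor DO, was at 0.648, 0.0303 and 0.101 FPKM in young and at 0.367, 0.414 and 0.528 FPKM in old samples, with young replicate 1 the highest of all. H2-Oa, its alpha chain, was listed at 0 in the young samples. Of the old samples, replicate 1 was listed at 0, replicate 2 at 0.316 FPKM and replicate 3 at 0.186 FPKM. H2-Eb2 was above 0 in old replicate 2 alone, at 0.132 FPKM. H2-Ea was not analysed here.

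Among 8 genes of antigen processing and class II turnover, 3 rose and 0 fell, with a median log2 difference of 0.28. Over all genes, 5.65% were called higher and 3.81% lower. Ctss, the cathepsin that trims the invariant chain in antigen-presenting cells, was at 33.5, 23.2 and 25.1 FPKM in young and at 125, 120.5 and 102 FPKM in old samples. All old samples were above all young ones, and the log2 difference was 2.09 (SE 0.15, limma adjusted p = 0.0035). The lysosomal proteases Ctsb and Ctsd rose by 0.65 (adjusted p = 0.00593) and 0.38 (adjusted p = 0.0256). Ctsl, which trims the invariant chain in the cortex of the thymus, had a difference of -0.37 (adjusted p = 0.172), and Lgmn, Ifi30, Sppl2a and March1 did not pass either. Without old replicate 2, 2 of the 8 were called higher, and without young replicate 1, 2 were called higher and 1, Ctsl, lower. Over all genes, 0.237% and 2.9% were called higher in these fits.

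The 7 genes of the proteins that Ciita joins on promoters had a median log2 difference of -0.11. Of these genes 0 passed limma in either direction (2 at an unadjusted p below 0.05, Rfx5 and Nfyc). Of all 19465 genes tested, 2849 were higher and 2554 lower at that unadjusted threshold. The unadjusted counts of this list and of those below stand against that background. The RFX subunit Rfx5 was at 3.08, 4.64 and 4.24 FPKM in young and at 6.13, 9.16 and 6.22 FPKM in old samples. Its groups did not overlap, and its difference of 0.83 (SE 0.22) had a limma adjusted p of 0.0568. The differences of the other RFX subunits were -0.05 for Rfxap and 0.12 for Rfxank, and the NF-Y subunits and Creb1 lay between -0.32 and -0.11.

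On the interferon-gamma side, Ifng was listed at 0 in all 6 samples, and 1 of the 9 tested genes, the receptor chain Ifngr1, rose by 0.35 on the log2 scale (SE 0.08, adjusted p = 0.0353). Irf1, an interferon-induced transcription factor, had a difference of 0.38 (adjusted p = 0.158). The list had a median of 0.18, with 1 gene called higher, against 5.65% of all genes, and 3 genes at an unadjusted p below 0.05. Without old replicate 2, or without young replicate 1, 0 of its genes were called by limma, against 0.237% and 2.9% of all genes called higher.

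The costimulatory genes, which T cells need beside the class II signal, had 1 of 5 called higher and a median of 0.60. This was Icosl, at 6.31, 5.38 and 6.39 FPKM in young and at 8.92, 9.50 and 9.09 FPKM in old samples (log2 difference 0.60, SE 0.11, adjusted p = 0.0258). Cd86 differed by 0.80 (adjusted p = 0.161) and Cd80 by 0.97 (adjusted p = 0.366), and neither passed. Of the 5, 2 were at an unadjusted p below 0.05. Over all genes 5.65% were called higher in the fit with all samples. Without old replicate 2, or without young replicate 1, 0 of the 5 were called by limma, against 0.237% and 2.9% of all genes called higher.

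Markers of macrophages and other leukocytes moved with the class II genes. In bulk tissue, more cells of a type and more RNA per cell cannot be told apart. Of 12 macrophage genes 8 rose and 0 fell (median 1.60), against 5.65% of all genes called higher and 3.81% lower. Their summed level was 157 to 232 FPKM in young and 736 to 800.3 FPKM in old samples. The complement gene C1qa was at 36.9, 19.8 and 24.6 FPKM in young and at 93.0, 118 and 90.8 FPKM in old samples (log2 difference 1.93, adjusted p = 0.0111). Mertk, a phagocytic receptor, and Cx3cr1 did not pass, with differences of 0.09 and 0.63. Of 6 general leukocyte genes 4 rose, among them Ptprc, which encodes CD45, by 1.60 (adjusted p = 0.0433), and the summed level was 23.8 to 48.9 FPKM in young and 67.7 to 109 FPKM in old samples. Without old replicate 2, 1 of the macrophage and 0 of the leukocyte genes were called by limma, against 0.237% of all genes called higher.

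Dendritic cells and B cells also carry class II constitutively. Of 8 dendritic cell genes tested, Itgax and Siglech rose, Flt3 fell by 1.22 on the log2 scale (adjusted p = 0.0414), and the median was 0.26. Over all genes, 5.65% were called higher and 3.81% lower. Itgax, an integrin also found on macrophages, was at 0.161, 0.0192 and 0.128 FPKM in young and at 1.23, 1.95 and 1.30 FPKM in old samples, a difference of 3.02 (SE 0.43, adjusted p = 0.0145). Of the markers that define conventional dendritic cells, Xcr1 was at 0.0178 to 0.0953 FPKM over all 6 samples, below the filter. Clec9a was at 0.200, 0.0960 and 0.213 FPKM in young and at 0.344, 0.467 and 0.271 FPKM in old samples, every old sample above every young one, with a log2 difference of 0.78 that did not pass (adjusted p = 0.298). Zbtb46, a transcription factor of these cells that endothelial cells also make, was at 5.05, 5.11 and 5.02 FPKM in young and at 4.32, 2.98 and 4.08 FPKM in old samples (difference -0.42, adjusted p = 0.157). The remaining list genes Batf3, Cd209a and Ccr7 overlapped between ages and did not pass. Their differences were -1.19 (adjusted p = 0.277), 0.55 (adjusted p = 0.605) and -0.03 (adjusted p = 0.988). With old replicate 2 left out, 0 of the dendritic cell genes were called by limma in either direction, and without young replicate 1, 2 were called higher and 0 lower. Over all genes, 0.237% and 2.9% were called higher in these fits. The summed dendritic list was 9.83 to 14.6 FPKM in young and 13.1 to 13.8 FPKM in old samples. Of 6 B cell genes tested 0 passed limma (0 at an unadjusted p below 0.05), the median was -0.44 (0.26 without young replicate 1), and the summed level was 0.740 to 4.26 FPKM in young and 0.927 to 1.32 FPKM in old samples.

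T cells read class II but in mice make little of it. Of the 8 T cell genes 7 entered the test, all of which had every old sample above every young one, as had 17.6% of all genes tested. Some were near the floor, with Cd3d listed at 0 in all young samples. The median was 1.66, and 3 of the 7, Cd3g, Cd4 and Cd2, passed, against 5.65% of all genes called higher. Cd4, which binds class II directly and is also made by some macrophages, was at 0.960, 0.307 and 0.625 FPKM in young and at 2.76, 2.57 and 3.36 FPKM in old samples (log2 difference 2.13, SE 0.37, adjusted p = 0.0219). The summed T cell list was 1.87 to 2.94 FPKM in young and 10.1 to 10.2 FPKM in old samples. Without old replicate 2, 0 of the T cell genes were called by limma, against 0.237% of all genes called higher.

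The remaining cell types showed no list with more genes called higher than 1. Of 4 monocyte genes and 6 neutrophil genes 0 passed limma, also at an unadjusted p below 0.05, with medians of 1.20 and -0.28. Both medians rested on the samples that stood apart, since the monocyte median was 0.08 without old replicate 2 and the neutrophil median was 1.35 without young replicate 1. The 6 erythroid genes and 5 endothelial genes also had 0 called by limma (1 and 2 at an unadjusted p below 0.05, the endothelial ones being Kdr and Tek), with medians of -0.59 and -0.43. Of all 19465 genes tested, 2849 were higher and 2554 lower at that unadjusted threshold. Of 6 bone genes 2 fell (median -1.92), of 5 Schwann cell genes 2 fell (median -0.47), of 7 hair cell genes 2 fell (median -0.66), and of 7 supporting cell genes 1 rose (median 0.06). Over all genes, 3.81% were called lower and 5.65% higher. In all 6 bone genes every old sample lay below every young one, as in 4 of the hair cell and 2 of the Schwann cell genes. This held for 16.1% of all genes tested. None of the bone, Schwann cell, hair cell and supporting cell lists kept a gene called by limma without old replicate 2. Without young replicate 1, 1 bone gene and 1 hair cell gene were called lower and 0 of the Schwann and supporting cell genes were called. The part of any of these cell types in the class II values was not tested.

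**Figure D5:**
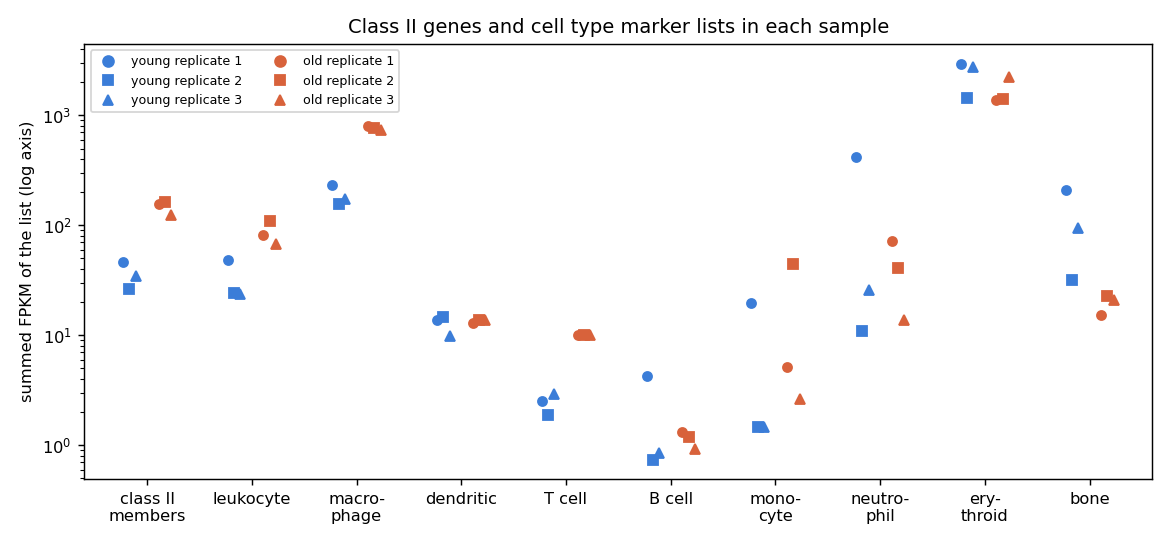
Summed FPKM (log y axis) of the 7 class II members and of 9 cell type lists in each sample, young in blue and old in orange. The members lie at 26.6 to 46.7 FPKM in young and 125 to 164 FPKM in old samples, and the leukocyte, macrophage and T cell lists separate the ages in the same direction, while young replicate 1 stands out in the B cell and neutrophil lists and old replicate 2 in the monocyte list.

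Set against macrophage genes of the same sample, the class II chains and Cd74 were higher in old mice by some measures. H2-DMa and H2-DMb1 were not part of these ratios, and H2-DMb1 rose less than Csf1r (log2 differences of 0.86 and 1.24). The mean FPKM of H2-Aa, H2-Ab1, H2-Eb1 and Cd74 was 0.661, 0.428 and 0.536 times that of Csf1r, the receptor macrophages need to live, in young and 1.63, 1.48 and 1.14 times in old samples. Against the mean of C1qa, C1qb and C1qc it was 0.254, 0.181 and 0.240 times in young and 0.436, 0.369 and 0.335 times in old samples. Neither ratio overlapped between ages. Against the mean of the whole macrophage list, in which Lyz2 has the highest level, it was 0.381, 0.222 and 0.304 in young and 0.456, 0.512 and 0.380 in old samples, where the ages touched, old replicate 3 lying just below young replicate 1. Without Lyz2 it was 0.558, 0.335 and 0.465 in young and 1.16, 0.980 and 0.865 in old samples. Against the mean of the leukocyte list it was 0.904, 0.718 and 1.12 in young and 2.24, 1.81 and 2.07 in old samples. Only the ratios to the whole macrophage list and to the leukocyte list were planned, and the others were added. Ratios to the other single macrophage genes are not given. All are descriptions over 3 samples per age, without a test.

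The genes most like the class II genes were sought by the root mean square difference between profiles of log2(FPKM + 0.1) over the 6 samples, each centred on its own mean. The reference was the mean profile of H2-Aa, H2-Ab1, H2-Eb1 and Cd74, and 14979 genes with a mean of at least 1 FPKM were compared. The closest were Plaur (0.28), Mmp12 (0.30), Slamf9 (0.31), Lyz2 (0.31) and Ddx60 (0.35). Among the members themselves this distance was 0.18 for H2-Eb1, 0.22 for H2-Ab1, 0.23 for H2-Aa and 0.32 for Cd74, which are part of the reference, and 0.78 for H2-DMa, 1.00 for H2-DMb1 and 1.41 for Ciita.

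Mmp12, a macrophage elastase, was at 0.510, 0.185 and 0.207 FPKM in young and at 3.62, 3.00 and 3.35 FPKM in old samples. Plaur, the urokinase receptor, was at 1.67, 0.948 and 0.790 FPKM in young and at 6.03, 8.59 and 4.87 FPKM in old samples. In both, as in the class II chains, young replicate 1 was the highest of the young. The genes most like Ciita, among 18827 compared, were Plekhg6 (0.06), Gm6768 (0.08), Flad1 (0.08), Naaa (0.10) and 4930404I05Rik (0.11), with differences between ages from 0.13 to 0.27, none of which passed the test.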

How the data were processed

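FPKM values per transcript and sample, as the authors deposited them, were used for 3 young and 3 old samples. Following the methods and the submitters' processing notes, which name CASAVA 1.8, TopHat2 2.0.9, Cufflinks 2.1.1, Cuffdiff 2.1.1 and GRCm38, filtered read pairs of directional libraries were aligned, assembled and quantified. The annotation release, the strand setting of the counting and the scaling between libraries are not given in the sources used here.

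Of 56671 transcripts, 55275 of the 55679 with Ensembl identifiers were matched to GENCODE M21, and their FPKM were summed per gene with the 992 authors' own transcripts kept as genes. The 404 unmatched ones were left out of the genes. Ages were compared with limma 3.58.1 in R 4.3.3 (lmFit, eBayes with trend) on log2(FPKM + 0.1) for genes with a mean FPKM of at least 0.1, two-sided, with Benjamini-Hochberg adjustment over all genes tested and a threshold of 0.05. Adjusted p-values are from this fit unless another is named (transcripts, a sample left out, another setting, or adjusted permutation p-values). Cuffdiff, the test of the study, works on reads and was not run here. A fold on this scale understates the change of low genes. Each sample is a pool of mice, and p-values measure the spread between these pools. Single values were compared by exact permutation tests.

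The members and lists were chosen with earlier results of these data known. The named genes are every member, list genes, and the 5 genes with profiles most like the class II chains with Cd74 and the 5 most like Ciita (mean of at least 0.163 FPKM). The depth was estimated from steps between low FPKM values, of which 92.2 to 94.2% lay within 0.1 of a whole fragment (20% by chance), and covers counting error only. The settings varied were the pseudocount, filter, scaling, variance trend, sample weights, replicate block, threshold, fold minimum, most abundant transcript and each sample left out. List counts without young replicate 1 or old replicate 2, and the run of letters shared by promoters were chosen after seeing the data. The code was tested on simulated data. Python 3.11.15, pandas 2.3.3, scipy 1.17.1 and matplotlib 3.10.9 were used. Promoter windows are from RefSeq (GRCm38.p6). The values of 3 genes of the lists are not reported here.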

Additional observations from a re-analysis of the deposited data

How the results depend on the processing

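The number of class II members called higher was 6 under every setting run (6 of 6 tested with a filter at a mean FPKM of at least 1, which removes Ciita) except a 2-fold minimum (5), no variance trend (4) and the omission of old replicate 2 (1). The omission of each sample in turn gave 1 to 6 members higher and 0 lower. It gave log2 differences from 2.47 to 3.38 for H2-Aa, 2.80 to 3.38 for H2-Ab1, 2.56 to 3.25 for H2-Eb1, 1.51 to 1.83 for H2-DMa, 0.74 to 0.92 for H2-DMb1, 1.84 to 2.46 for Cd74 and 0.01 to 0.39 for Ciita. Without old replicate 2, 5 members passed no longer (H2-Aa at 2.87, H2-Eb1 at 2.75, H2-DMa at 1.60, H2-DMb1 at 0.85, Cd74 at 2.07). Without a variance trend H2-Aa (2.96, adjusted p = 0.0515) and Cd74 (2.19, adjusted p = 0.0522) missed the threshold, and H2-DMb1 (0.86) is below a 2-fold minimum by construction. The cause of the other losses was not tested.

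The differences between targets and Ciita kept their sign in all settings run. With a sample left out they ran from 2.25 to 3.35 for H2-Aa, 2.47 to 3.35 for H2-Ab1, 2.23 to 3.21 for H2-Eb1, 1.18 to 1.61 for H2-DMa, 0.44 to 0.89 for H2-DMb1 and 1.62 to 2.43 for Cd74.

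Over all genes, 1099 were higher and 741 lower. These counts were 2849 and 2554 at an unadjusted p, 419 and 245 with a 2-fold minimum, 284 and 126 without a variance trend, and 46 to 949 higher and 16 to 822 lower with a sample left out. Without a filter 398 were lower. The fit with a replicate block gave 440 higher and 290 lower genes and the same 6 of 7 members. Samples with the same number did not deviate together (correlations of 0.02, -0.04 and 0.01 over genes), and pairs with other numbers lay between -0.05 and 0.04. With 3 samples per age this cannot show whether samples of the same number shared any handling.

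With 3 samples against 3 no exact test can pass 0.05, and the data do not separate changes of Ciita within its interval.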
